A study of Mus musculus with 12 samples.

Results

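The AP-1 and immediate early genes followed here are *Jun*, *Junb*, *Jund*, *Fos*, *Fosb*, *Fosl1*, *Fosl2*, *Atf3*, *Egr1* and *Ier2*, which are 10 of the 21878 genes of the deposited table. They were selected by name, 9 of them as known members of the family or of its early response program. Earlier results of these data were known at that choice, so counts over the members are descriptions. *Jund* was chosen for its large fall with bleomycin (BLM, which damages the cells lining the alveoli) in AT2 cells, so its values in that comparison are a description and were not tested. RNA was sequenced from type 2 alveolar epithelial (AT2) cells, the surfactant-making progenitors of the lung alveolus, in 4 groups of 3 samples. AT2-PBS and AT2-BLM were cells of *Atg5* f/f mice, called wild type in the labels, given PBS or BLM at 2 U per kg. *Atg5*-/- AT2-PBS and *Atg5*-/- AT2-BLM came from *Atg5* f/f mice that also carried *Nkx2.1*Cre, again after PBS or BLM. Cre driven by *Nkx2.1* acts throughout the lung epithelium and removes *Atg5*, a gene needed to build autophagosomes. The labels give the strain C57BL/6 for every sample, the methods give male mice of 8 to 12 weeks, and day 14 is named for all groups but *Atg5*-/- AT2-PBS. Lungs were digested with elastase at 4 U per mL, cells were incubated with DNase for 15 minutes at 37 degrees C and stained for 45 minutes, and CD31-CD34-CD45-EpCAM+CD24-Sca-1- cells were sorted. Nothing in the sources used here says whether the 3 samples of a group came from separate mice, so the p-values measure the spread between these samples, which may be technical.

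AP-1 is a transcription factor made of a pair of basic leucine zipper (bZIP) proteins, 1 usually from the Jun family and the other from the Jun, Fos or Atf family. Its genes *Fos*, *Fosb*, *Jun*, *Junb* and *Atf3*, like the zinc finger factor *Egr1* and the small nuclear protein *Ier2*, are immediate early genes. They are switched on within minutes of growth factors, stress or tissue handling without new protein synthesis, through serum response factor and through CREB and ATF proteins already in the cell, and their mRNA decays quickly. *Jund* differs in being expressed in many resting cells. Warm enzymatic digestion is known to induce this program together with heat shock genes, so the heat shock genes are given beside the members.

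*Jun* (chromosome 4, 94715725 to 94718913 of mm9), *Junb* (chromosome 8, 87500811 to 87502617), *Jund* (chromosome 8, 73221638 to 73224515) and *Ier2* (chromosome 8, 87185230 to 87186751) have 1 exon in the annotation. Single-exon genes made up 1.84% of the 9824 tested genes with a transcript sequence. The transcripts of *Jund* and *Junb* had 62.7% and 62.6% G and C, at percentile 99.0 of the tested genes, and that of *Ier2* stood at percentile 97.3. *Fos* (chromosome 12, 86814840 to 86818223) and *Atf3* (chromosome 1, 192994175 to 193007219) have 4 exons and 51.9% and 52.2% G and C. Genes on the opposite strand overlap *Jun* (*BC042782*), *Jund* (*Gm11175*), *Fosl1* (*Ccdc85b*) and *Egr1* (*Gm17507*). The libraries were stranded, but whether strand was used in computing FPKM is not given in the sources used here, so the reads of these pairs may not have been told apart.

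Promoters of 7 members were found in RefSeq (GRCm38.p6), each with 250 bases before and 50 after the annotated start. Those of *Fos*, *Jun* and *Atf3*, which moved together in these data, are shown with that of *Jund*, which followed them less. Capitals mark the matches to the motifs searched on both strands.

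Fos, chr12:85473640-85473939, + strand: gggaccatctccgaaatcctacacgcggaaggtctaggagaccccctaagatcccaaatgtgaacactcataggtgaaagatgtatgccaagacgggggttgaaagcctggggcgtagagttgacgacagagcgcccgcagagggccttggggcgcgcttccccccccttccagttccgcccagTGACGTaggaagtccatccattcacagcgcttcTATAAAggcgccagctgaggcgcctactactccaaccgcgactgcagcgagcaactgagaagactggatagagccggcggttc
Jun, chr4:95052173-95052472, - strand: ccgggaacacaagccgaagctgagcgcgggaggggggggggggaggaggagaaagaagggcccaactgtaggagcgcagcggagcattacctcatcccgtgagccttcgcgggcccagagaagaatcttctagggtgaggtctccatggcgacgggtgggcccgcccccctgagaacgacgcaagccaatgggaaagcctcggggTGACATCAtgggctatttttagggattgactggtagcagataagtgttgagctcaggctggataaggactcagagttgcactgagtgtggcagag
Atf3, chr1:191183284-191183583, - strand: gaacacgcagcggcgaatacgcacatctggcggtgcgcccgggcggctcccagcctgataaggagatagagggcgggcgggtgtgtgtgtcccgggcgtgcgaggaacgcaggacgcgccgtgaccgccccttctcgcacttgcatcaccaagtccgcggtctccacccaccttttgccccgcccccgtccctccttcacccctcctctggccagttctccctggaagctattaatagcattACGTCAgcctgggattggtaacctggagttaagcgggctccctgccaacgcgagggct
Jund, chr8:70697489-70697788, + strand: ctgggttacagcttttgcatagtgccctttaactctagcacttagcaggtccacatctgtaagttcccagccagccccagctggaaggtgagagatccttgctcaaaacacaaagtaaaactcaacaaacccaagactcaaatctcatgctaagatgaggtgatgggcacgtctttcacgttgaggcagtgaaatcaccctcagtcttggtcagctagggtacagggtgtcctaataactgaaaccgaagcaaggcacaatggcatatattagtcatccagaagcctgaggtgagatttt

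The motifs were the AP-1 site (TGAGTCA or TGACTCA), the full cAMP response element (CRE), the serum response element by name and the TATA box (TATAAA). Among all 32851 promoters, 5.2% held the AP-1 site, 1.79% the CRE, 1.63% the serum response element and 13.6% the TATA box. Of the 7 members searched, 0 held any of the first 3 in this window, and *Fos* and *Junb* held a TATA box. In *Fos* its first base lies at position -33 from the start. After reading the sequences, the CRE half-site (TGACGT, in 7.51% of all promoters) and the CRE variant known from *Jun* (TGACATCA, in 3.62%) were added. The half-site was in *Fos* at -66 and in *Atf3* at -8, and the variant was in *Jun* at -45. The *Jund* window held none of these letters, and its 46.7% G and C was the lowest of the 7. Where a match is or is not found says nothing on the binding of a factor in these cells.

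Levels are FPKM, fragments scaled to transcript length and to the mapped fragments of the sample. Changes are differences of log2(FPKM + 1), fitted by limma across the 12 samples for the 10675 genes that reached an FPKM of 1 in 3 or more samples, as all 10 members did. On this scale the change of a weakly expressed gene is understated. The study's criterion was used for calls, a p under 0.05 before adjustment together with a change of 1.4-fold or more, and Benjamini-Hochberg adjusted p-values are given beside it. With 3 samples in each group, 0.1 is the smallest p that exact permutation allows, and no single gene was tested that way.

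The sorted cells carried AT2 markers such as *Sftpb* and *Abca3*, with sums over the 10 AT2 markers from 23920 FPKM upward in every sample. *Sftpc*, the defining marker, was listed at 0 in 11 of the 12 samples and at 112600 FPKM in AT2-BLM replicate 2, and the other AT2 markers stand in for it. *Atg5* was listed at 6.01 to 12.5 FPKM in the 6 *Atg5* f/f samples and at 6.72 to 10.1 FPKM in the 6 *Atg5*-/- samples, so the FPKM of the whole gene did not separate the genotypes. The number of reads per sample is unknown, and FPKM summed to between 390141 and 549169 per sample. The mean log2 level of Y-linked genes was 1.84 to 2.12 in AT2-PBS replicates 2 and 3, AT2-BLM replicate 3 and *Atg5*-/- AT2-BLM replicates 2 and 3, and 0.02 to 0.22 in the other 7 samples, although the methods name male mice only. In bulk samples such as these, fewer cells of a type and less RNA per cell cannot be told apart.

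*Junb* and *Fos* were the most abundant members, with medians over the 12 samples of 433 and 431 FPKM, both at percentile 98.9 of the tested genes. *Jun* (197 FPKM), *Ier2* (196 FPKM), *Egr1* (103 FPKM) and *Atf3* (80.4 FPKM) followed, then *Jund* (28.3 FPKM) and *Fosb* (7.27 FPKM). *Fosl2* (2.28 FPKM) and *Fosl1* (1.34 FPKM), the Fos-related antigens, were near the limit of the filter. The ranges over samples were wide and overlapped for neighbours in this order. *Junb* varied least, with a highest value 3.86 times the lowest, and *Fosl1* most, with a ratio of 105. The plot of FPKM by sample shows these levels.

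**Figure D1:**
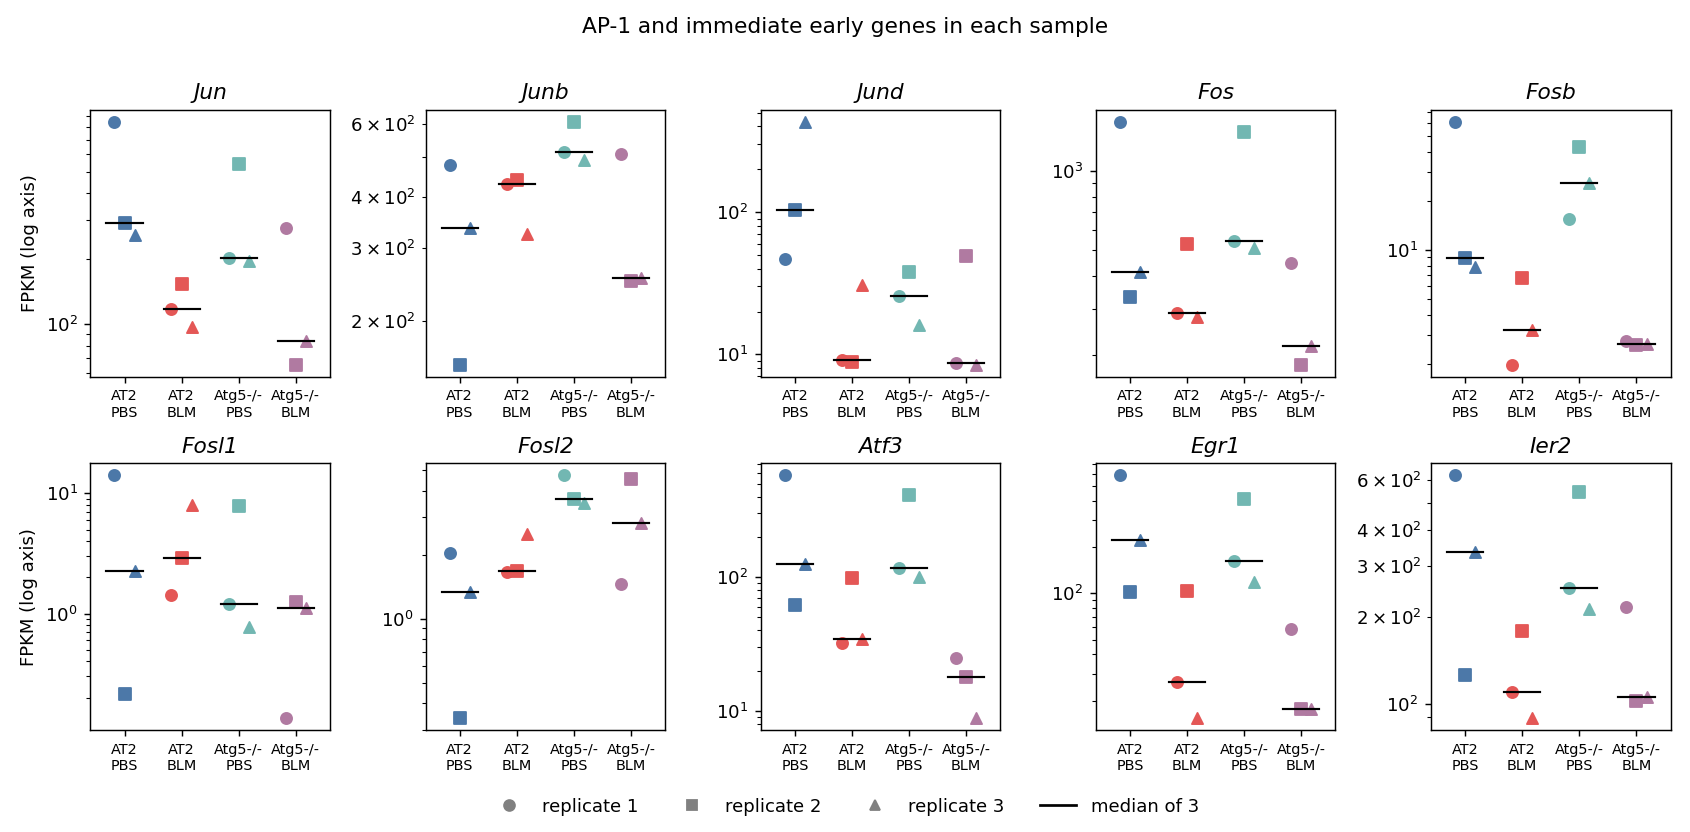
FPKM of the 10 genes (vertical log axis, a scale of its own in each panel) in the 3 samples of each of the 4 groups, with the replicate given by the symbol and the group median by a line. AT2-PBS replicate 1 (circle) and *Atg5*-/- AT2-PBS replicate 2 (square) were each the highest of their group in 9 of 10 genes, and *Jund* was highest in AT2-PBS replicate 3, at 429 FPKM.

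A pair of PBS samples stood apart. AT2-PBS replicate 1 was the highest of its group for 9 of the 10 members and *Atg5*-/- AT2-PBS replicate 2 likewise for 9. The members summed to 4767 FPKM in the former, 1.19% of all FPKM, and to 4020 FPKM (0.783%) in the latter, against 695 to 2130 FPKM in the other 10 samples. *Fos* was at 1541 and 1414 FPKM in these samples and at 184 to 543 FPKM in the rest. The same samples were the highest of their groups for *Hspa1a*, the inducible Hsp70 gene, at 98.2 FPKM against 17.8 and 50.8 FPKM in AT2-PBS, and at 82.3 FPKM against 33.9 and 31.5 FPKM in *Atg5*-/- AT2-PBS. *Dnajb1*, an Hsp40 co-chaperone, was also highest there, at 41.8 and 43.8 FPKM, while *Hsph1*, another chaperone, was the lowest of its group in AT2-PBS replicate 1 at 1.99 FPKM. Over all 16 heat shock genes, the mean lay 0.21 and 0.19 (log2) above the group mean in these samples, and over 34 other immediate early genes it lay 0.54 and 0.36 above. AT2-PBS replicate 2 lay on the other side, 0.50 (log2) below its group mean for the 34 genes. The heat shock mean also lay 0.16 and 0.17 above the group mean in AT2-BLM replicate 1 and *Atg5*-/- AT2-BLM replicate 2. In these BLM samples the members other than *Jund* had mean deviations of -0.32 and -0.17. The part of digestion or sorting in these differences was not tested.

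**Figure D2:**
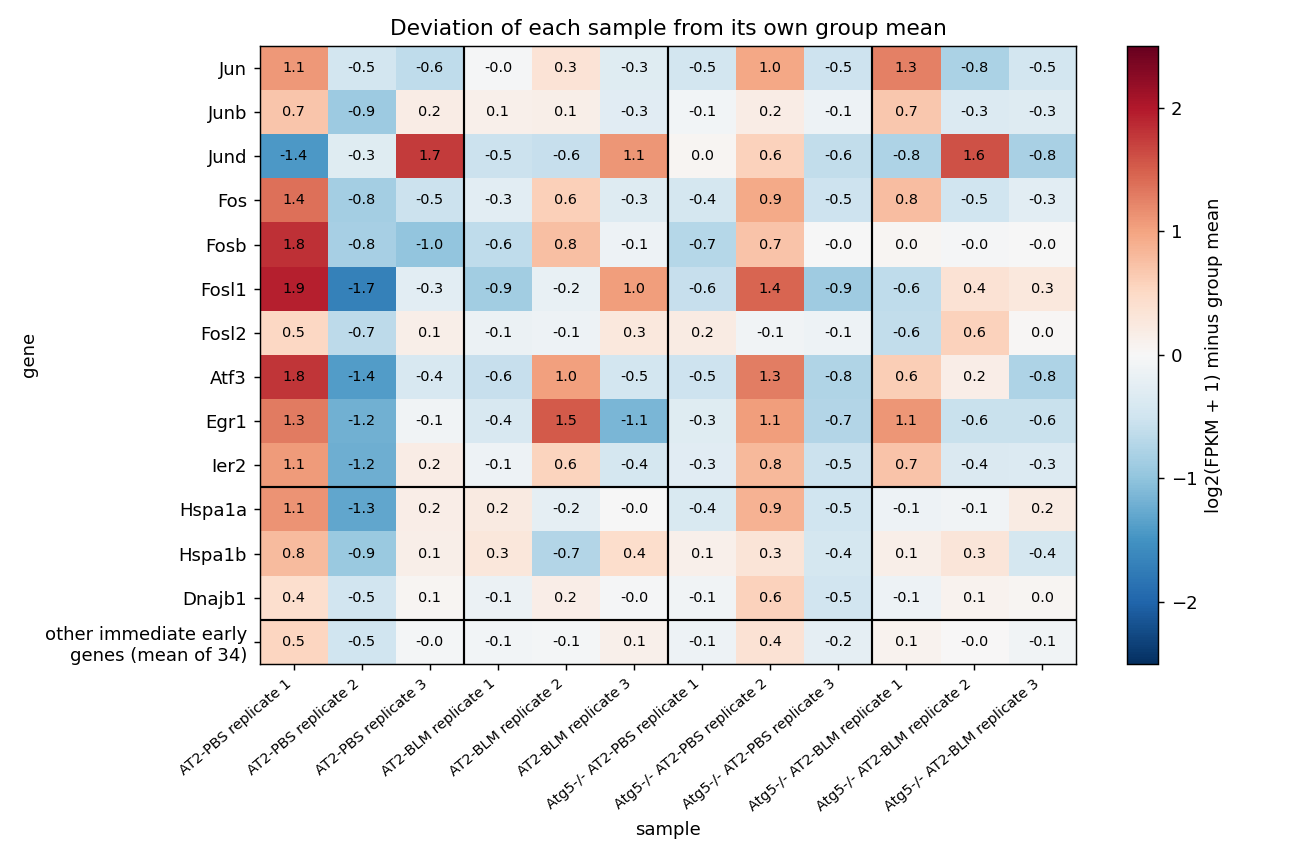
Deviation of log2(FPKM + 1) of each sample (columns) from the mean of its own group for the 10 genes, 3 heat shock genes and the mean of 34 other immediate early genes (rows), red above and blue below. AT2-PBS replicate 1 and *Atg5*-/- AT2-PBS replicate 2 are red in most rows, with *Fos* at 1.37 and 0.95, whereas *Jund* is at -1.43 in the former and at 1.74 in AT2-PBS replicate 3.

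In AT2 cells, members were called lower with BLM. Of the 9 tested members, 5 were called lower with BLM (*Jun*, *Fosb*, *Atf3*, *Egr1* and *Ier2*) and 0 higher, where 7.77% of all tested genes were called lower and 20.6% higher. The median change of the 9 was -1.30 (log2), against 0.17 for all genes tested. Only *Egr1* of the 9 had an adjusted p under 0.05, as did 17.8% of all genes, and 2 of the 9 had every BLM sample below every PBS sample, as did 11.3% of all genes. Markers of other cells differed here too. The 5 club cell markers summed to 4930 to 11750 FPKM with PBS and 873 to 4965 FPKM with BLM. Those of type 1 alveolar cells summed to 2035 to 2451 and 2547 to 3827 FPKM. The 11 leukocyte markers summed to 43870 to 54770 and 17120 to 32730 FPKM, sums that include *Lyz2* and *Cd74*, which AT2 cells express too. *Ptprc* (CD45), taken by itself, went the other way, at 0.01 to 0.62 and 0.71 to 0.95 FPKM. The part of such cells in the falls was not tested.

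*Egr1*, a zinc finger factor of the growth and injury response, was at 587, 102 and 223 FPKM in AT2-PBS and at 26.4, 104 and 15.4 FPKM in AT2-BLM. AT2-BLM replicate 2 reached the lowest PBS sample and the other BLM samples were well below it. The log2 fold change was -2.72 (standard error 0.77, limma adjusted p = 0.0323). *Jun*, the founding AP-1 subunit and a strong activator, was at 842, 290 and 255 FPKM in AT2-PBS and at 118, 153 and 97.4 FPKM in AT2-BLM. These groups did not overlap, and *Jun* fell by 1.71 (log2, standard error 0.58, limma adjusted p = 0.0602). *Fosb*, a Fos family member with low basal expression, was at 61.0, 8.93 and 7.85 FPKM in AT2-PBS against 1.97, 6.68 and 3.21 FPKM in AT2-BLM. This gene also did not overlap between the groups, although AT2-PBS replicate 1 was far above the other PBS samples, and it fell by 1.94 (standard error 0.63, limma adjusted p = 0.0527). *Atf3*, a stress-induced bZIP factor that can repress its targets, was at 575, 62.0 and 125 FPKM in AT2-PBS and at 32.0, 98.8 and 34.8 FPKM in AT2-BLM. Its groups overlapped through AT2-PBS replicate 2 and AT2-BLM replicate 2, and its log2 fold change was -1.76 (standard error 0.77, limma adjusted p = 0.128). *Ier2* was at 621, 126 and 337 FPKM in AT2-PBS and at 110, 179 and 89.0 FPKM in AT2-BLM, with overlap at the same samples and a log2 fold change of -1.30 (limma adjusted p = 0.111).

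The other members were not called. *Fos*, the main partner of Jun proteins, was at 1541, 334 and 414 FPKM in AT2-PBS and at 289, 529 and 279 FPKM in AT2-BLM, with a log2 fold change of -0.77 (standard error 0.57, limma adjusted p = 0.358). *Junb*, which can oppose *Jun* in proliferation, was at 478, 157 and 335 FPKM in AT2-PBS and at 428, 438 and 324 FPKM in AT2-BLM, a change of 0.42. *Fosl2* changed by 0.46 and *Fosl1* by 0.17, the latter being -0.01 with scaling to *Cdh1* and -0.04 with centring by GC content. Without AT2-PBS replicate 1, *Jun* was at -1.17, *Atf3* at -0.86 and *Ier2* at -0.77, none of them called. Then 3 members were called, *Egr1* (-2.07) and *Fosb* (-1.03) lower and *Junb* (0.77) higher. Without both PBS samples with the highest members, an alternative added after seeing the data, *Jun*, *Fosb* and *Egr1* were called, and 7.47% of genes were called lower. Without AT2-BLM replicate 1 or 3, 3 members were called, *Atf3* and *Ier2* being lost. The share of all genes called with 1 sample left out is not given here.

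*Jund*, which was selected on this contrast, was at 46.9, 103 and 429 FPKM in AT2-PBS and at 9.20, 8.82 and 30.7 FPKM in AT2-BLM. The PBS samples differed among themselves by a ratio of 9.16 and none of them overlapped the BLM samples. The log2 fold change was -3.13 (standard error 0.81, 95% interval -4.89 to -1.38), given as a description with no test. It ranged from -3.85 without AT2-PBS replicate 1 to -2.26 without AT2-PBS replicate 3.

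In *Atg5*-/- AT2 cells, where *Jund* was tested too, members were again called lower with BLM. Of the 10 members, 5 were called lower (*Fos*, *Fosb*, *Atf3*, *Egr1* and *Ier2*) and 0 higher, where 10.7% of all genes were called lower and 7.66% higher. All 10 log2 fold changes were below 0, with a median of -1.23 against 0.06 for all genes. Adjusted p-values were under 0.05 for 3 of the 10, as for 8.67% of all genes, and 4 did not overlap between the groups, where 11.8% of all genes had every BLM sample lower. Markers of other cells went in different directions here. *Ptprc* (CD45) was at 7.54 to 8.47 FPKM with PBS and 0.833 to 2.64 FPKM with BLM. The 8 fibroblast markers summed to 91.6 to 102 and 5.495 to 17.7 FPKM. The club cell gene *Scgb1a1* was at 22600 to 83590 and 1050 to 2101 FPKM, and ciliated cell markers summed to 20.7 to 42.3 and 14.4 to 20.2 FPKM. The 11 leukocyte markers summed to 36230 to 42580 and 32730 to 39700 FPKM, which overlap. Endothelial sums overlapped too, at 4.78 to 35.3 and 15.6 to 16.2 FPKM. Type 1 alveolar cell markers rose, from 1546 to 1841 FPKM with PBS to 2368 to 2790 FPKM with BLM. The part of such cells in the falls was not tested.

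*Atf3* fell most, by 3.32 (log2, standard error 0.77, limma adjusted p = 0.0179), from 117, 408 and 99.6 FPKM with PBS to 24.9, 17.8 and 8.86 FPKM with BLM. The highest BLM sample was far below the lowest PBS sample. *Egr1* was at 162, 415 and 119 FPKM with PBS and at 58.4, 17.7 and 17.7 FPKM with BLM, without overlap, and fell by 2.87 (standard error 0.77, limma adjusted p = 0.0383). *Fosb* was at 15.4, 42.9 and 25.6 FPKM with PBS and at 2.77, 2.59 and 2.63 FPKM with BLM, and fell by 2.87 (standard error 0.63, limma adjusted p = 0.0142). The BLM samples of *Fosb* were nearly equal, with a standard deviation of 0.097 FPKM. *Fos* was at 543, 1414 and 511 FPKM with PBS and at 448, 184 and 216 FPKM with BLM, a change of -1.48 (standard error 0.57, limma adjusted p = 0.147). The groups of *Fos* stood apart by a small gap between 448 and 511 FPKM. *Ier2* was at 253, 544 and 214 FPKM with PBS and at 217, 102 and 105 FPKM with BLM, where *Atg5*-/- AT2-BLM replicate 1 overlapped the PBS samples, and its change was -1.21 (limma adjusted p = 0.209).

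*Jun* was not called, at 201, 541 and 194 FPKM with PBS and 276, 65.5 and 83.6 FPKM with BLM, a change of -1.26 (limma adjusted p = 0.23). *Junb* was at 512, 606 and 491 FPKM with PBS and at 507, 250 and 254 FPKM with BLM, and its change of -0.74 was not called. Both *Jun* and *Junb* were high in *Atg5*-/- AT2-BLM replicate 1 alone among the BLM samples. *Fosl1* changed by -0.89 and *Fosl2* by -0.40, neither called. Scaling to *Cdh1*, or by the median ratio, added *Jun* and *Junb* and gave 7 called members. With *Cdh1* scaling the median change of all genes also moved lower, from 0.06 to -0.32. The share of all genes called under these scalings, or with 1 sample left out, is not given here. Leaving out *Atg5*-/- AT2-BLM replicate 1 also gave 7, with *Jun* at -1.89 and *Junb* at -1.08. Only 3 members were called without *Atg5*-/- AT2-PBS replicate 2 or without *Atg5*-/- AT2-BLM replicate 2 or 3, when *Fos* (-1.01, -1.23 and -1.35) and *Ier2* (-0.80, -1.03 and -1.04) were lost. With the covariate of Y-linked level *Fos* (-0.81) and *Ier2* (-0.60) were not called either. Without both PBS samples with the highest members, *Fos*, *Fosb*, *Atf3* and *Egr1* were called, beside 8.15% of all genes called lower.

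*Jund* was at 25.9, 37.8 and 16.1 FPKM with PBS and at 8.64, 48.9 and 8.48 FPKM with BLM in these cells. A pair of BLM samples lay below every PBS sample, while *Atg5*-/- AT2-BLM replicate 2 lay above them all. The log2 fold change was -0.66 (standard error 0.81, 95% interval -2.41 to 1.10, limma adjusted p = 0.72), so a fall of *Jund* with BLM was not detected in these samples, and the interval also holds large falls. Without that replicate it was -1.45 and not called. The sample is among those with Y-linked expression, as were the highest *Jund* samples of AT2-PBS and AT2-BLM. *Atg5*-/- AT2-BLM replicate 3 also had Y-linked expression, and its *Jund* was the lowest of the 12 samples. With Y-linked expression as a covariate, the change of *Jund* was -1.59 and passed the call rule.

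**Figure D3:**
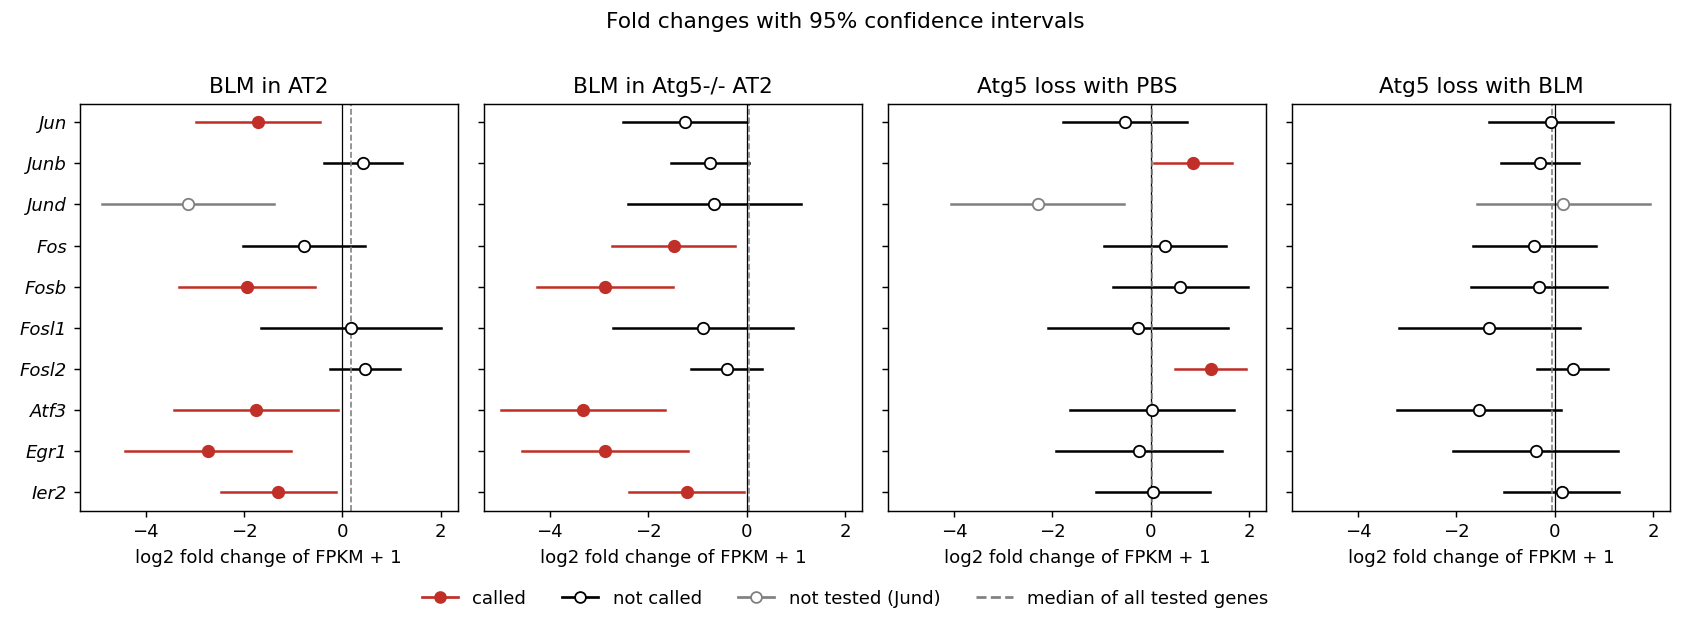
Log2 fold change of FPKM + 1 with its 95% confidence interval (horizontal axis) for the 10 genes (rows) in 4 comparisons (panels), filled red where called, open where not called and grey for *Jund* where not tested. The intervals of *Fosb*, *Atf3*, *Egr1* and *Ier2* lie below 0 in both BLM panels, and in the panel of *Atg5* loss with PBS those of *Junb* and *Fosl2* lie above 0.

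The effects of BLM in the 2 genotypes were compared by the interaction term. It was called for *Junb* alone among the 9 tested members, at -1.17 (log2, standard error 0.52, limma adjusted p = 0.224), where 15.2% of all genes were called lower and 5.02% higher in this term and 7.89% had an adjusted p under 0.05. *Junb* was 0.42 with BLM in AT2 cells and -0.74 in *Atg5*-/- AT2 cells, and neither change was called. The interaction of *Junb* was lost in 8 of the 12 fits that left out 1 sample, from -0.72 without AT2-PBS replicate 2 to -1.23 without *Atg5*-/- AT2-PBS replicate 3, and it stood at -0.48 with the Y-linked covariate. For *Atf3* the term was -1.57 (95% interval -3.92 to 0.79), for *Fosb* -0.93 (-2.88 to 1.02) and for *Fosl2* -0.86 (-1.87 to 0.15). Without AT2-PBS replicate 1 it was called for 4 members, *Junb*, *Atf3* (-2.46), *Fosb* (-1.84) and *Fosl2* (-1.12). The share of all genes called in that fit is not given here. For *Jund* it was 2.47 (-0.01 to 4.96), as a description only.

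With PBS, *Atg5* loss went with higher *Junb* and *Fosl2*. Of the 9 tested members, 2 were called higher and 0 lower, where 14.1% of all genes were called higher and 5.16% lower. The median of the 9 was 0.05 against 0.02 for all genes, 1 of the 9 had an adjusted p under 0.05 beside 11.2% of all genes, and both called members had no overlap, where 18.1% of all genes had every *Atg5*-/- sample higher. *Fosl2*, a Fos-related factor of epithelium and fibroblasts, was at 2.05, 0.340 and 1.33 FPKM in AT2-PBS, against 4.73, 3.65 and 3.51 FPKM after *Atg5* loss, a rise of 1.22 (log2, standard error 0.33, limma adjusted p = 0.0304). *Junb* was at 478, 157 and 335 FPKM in AT2-PBS, against 512, 606 and 491 FPKM after *Atg5* loss, a rise of 0.86 (standard error 0.36, limma adjusted p = 0.179). Its gap between the groups was small, and without AT2-PBS replicate 2 its change was 0.42 and not called. It was also not called without any 1 of the 3 *Atg5*-/- AT2-PBS samples (0.77 to 0.92) or with the Y-linked covariate (0.41), while *Fosl2* was called in every leave-one-out fit. *Fosb* changed by 0.60, which was not called, and by 1.51 without AT2-PBS replicate 1, which was.

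*Jund* was lower in *Atg5*-/- AT2-PBS than in AT2-PBS, at a log2 fold change of -2.30 (95% interval -4.06 to -0.55). This comparison shares the AT2-PBS samples with the one used to choose *Jund*, and the value is a description with no test. Markers of other cells differed between the same groups. *Ptprc* was at 7.54 to 8.47 FPKM in *Atg5*-/- AT2-PBS and at 0.01 to 2.64 FPKM in the other 9 samples. The 8 fibroblast markers, of which all were in the table, summed to 91.6 to 102 FPKM in *Atg5*-/- AT2-PBS and to 3.53 to 15.1 FPKM in AT2-PBS, with *Col1a1* at 11.4 to 25.9 and 0.625 to 2.24 FPKM. The 11 leukocyte markers in the table summed to 36230 to 42580 FPKM and to 43870 to 54770 FPKM, sums that hold *Lyz2* and *Cd74*, which AT2 cells also express. The 5 club cell markers, with *Scgb1a1* at 22600 FPKM or more in *Atg5*-/- AT2-PBS and 4780 to 11510 FPKM in AT2-PBS, also differed. The part of such cells in the levels of *Junb* and *Fosl2* was not tested.

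With BLM, *Atg5* loss changed none of the 9 tested members by the call rule. By limma 0 were called in either direction, 0 had an unadjusted p under 0.05 and 0 an adjusted p under 0.05, where 3.12% of all genes were called lower, 2.04% higher and 0.00937% had an adjusted p under 0.05. *Atf3* was at 32.0, 98.8 and 34.8 FPKM in AT2-BLM, against 24.9, 17.8 and 8.86 FPKM after *Atg5* loss, without overlap, a change of -1.54 (standard error 0.77, 95% interval -3.21 to 0.13, limma adjusted p = 0.653). *Fosl1* was at 1.42, 2.88 and 8.07 FPKM and at 0.135, 1.25 and 1.12 FPKM, a change of -1.33 (limma adjusted p = 0.725). They were the 2 of 9 members with every *Atg5*-/- sample lower, as 8.49% of all genes were. In a fit of the compared groups alone, and without both PBS samples with the highest members, *Atf3* and *Fosl1* were called lower. In the latter fit 3.18% of all genes were called lower.

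*Jun*, *Fos*, *Fosb*, *Atf3*, *Egr1* and *Ier2* varied together across samples, and *Jund* and *Fosl2* did so less. Over the 12 samples, the log2 levels of these 6 had Pearson correlations with each other of 0.82 to 0.94. *Jund* had correlations with them from 0.10 (*Fos*) to 0.40 (*Egr1*), *Fosl2* from -0.25 (*Jun*) to 0.18 (*Fosb*) and *Junb* from 0.41 (*Jun*) to 0.67 (*Fos*). After the group means were taken out, *Fos* and *Egr1* had a correlation of 0.91, and *Fos* and *Jund* one of -0.44. These are descriptions over samples that share group, library and FPKM scaling. The genes most like *Fos* over the 12 samples were *Nr4a1* (0.913), *Csrnp1* (0.907), *Btg2* (0.899), *Dusp1* (0.893) and *Ppp1r10* (0.89). Those most like *Jund* were *Zfand5* (0.963), *Sox4* (0.96), *Bmpr1a* (0.956), *Bod1* (0.951) and *Plpp6* (0.948), and all 5 were highest in AT2-PBS replicate 3, the sample in which 7.4% of all tested genes were highest. Since these genes were picked for their likeness over the same 12 samples, their changes with BLM follow in part from the choice and are a description only. In AT2 cells they went from -0.76 for *Bmpr1a* to -1.83 for *Sox4* among the 5 most like *Jund*, and from -0.12 for *Dusp1* to -1.44 for *Nr4a1* among the 5 most like *Fos*. In *Atg5*-/- AT2 cells they went from -0.14 for *Sox4* to 0.09 for *Plpp6*, and from -0.31 for *Ppp1r10* to -1.91 for *Nr4a1*.

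**Figure D4:**
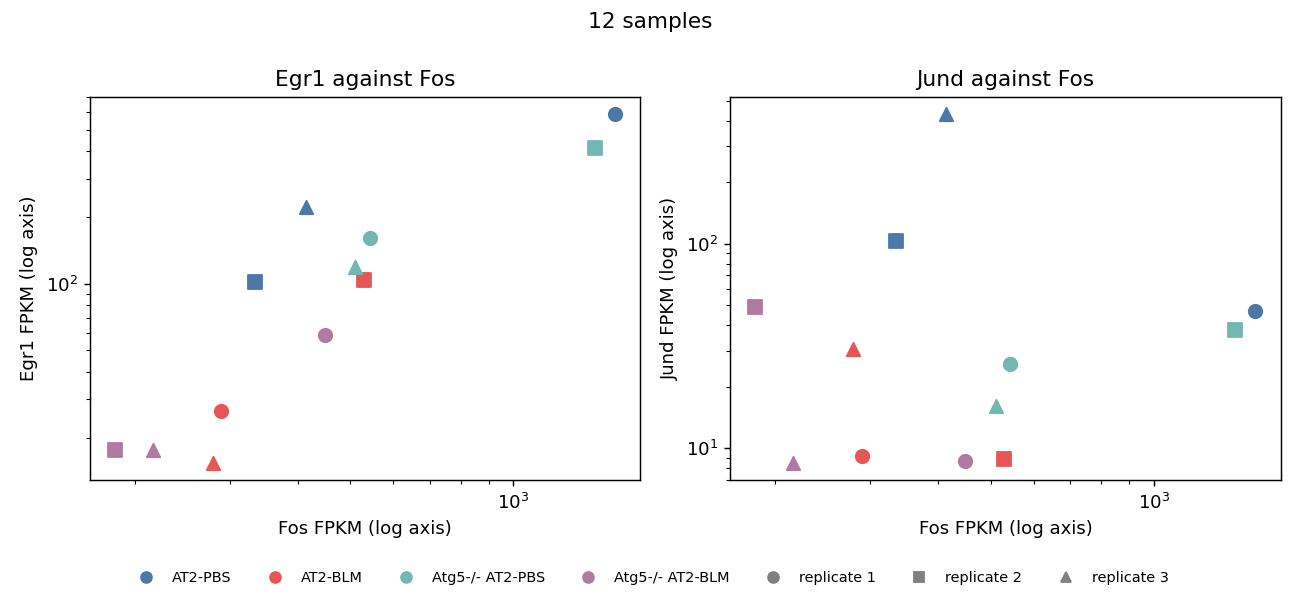
FPKM of *Egr1* (left) and *Jund* (right) against that of *Fos* in the 12 samples, on log axes, with the group given by color and the replicate by symbol. *Egr1* goes up with *Fos* over all 4 groups, and *Jund* is highest in AT2-PBS replicate 3, where *Fos* is at 414 FPKM, and is at 46.9 FPKM where *Fos* is highest.

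GC-rich and single-exon genes had median changes close to those of all genes. The tenth of genes with the highest GC content (58.2% to 72.8%) had a median change of 0.17 with BLM in AT2 cells and 0.08 in *Atg5*-/- AT2 cells, against 0.17 and 0.06 over all genes. The 177 other single-exon genes had medians of 0.18 and 0.05. With each sample centred by GC decile, *Jund* changed by -3.26 and -0.69.

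Other immediate early genes were called lower with BLM more often than higher, with the counts in AT2 cells nearly even once both PBS samples with the highest members were left out. Of 34 tested, 9 were called lower and 3 higher with BLM in AT2 cells (median -0.32), and 19 lower and 1 higher in *Atg5*-/- AT2 cells (median -0.86). Over all genes 7.77% were called lower in the former and 10.7% in the latter. The *Ptprc*, fibroblast and *Scgb1a1* levels given above fell along with the 19, while other marker sums given there overlapped or rose. The part of such cells was not tested. *Sgk1*, a serum- and glucocorticoid-regulated kinase, fell by 3.21 (log2, limma adjusted p = 0.00323) in the latter, from 49.9 ± 4.21 to 4.96 ± 2.70 FPKM (SD, n = 3). *Myc* fell by 2.10 (limma adjusted p = 0.0126), from 14.4 ± 2.28 to 2.71 ± 1.16 FPKM (SD, n = 3). In AT2 cells the matrix gene *Ctgf*, a target of YAP and TGF-beta, rose by 2.40 (limma adjusted p = 0.0178) and *Socs3*, a STAT3 feedback gene, rose by 1.60 (limma adjusted p = 0.00333). With *Atg5* loss and PBS 8 of the 34 were called higher and 0 lower, where 14.1% of all genes were higher. With BLM 0 were higher and 4 lower, where 3.12% were lower, and in the interaction 0 were higher and 6 lower, a share near the 15.2% of all genes. Without both PBS samples with the highest members, 31 of these genes were tested, of which 3 were called higher and 4 lower with BLM in AT2 cells (median -0.01), and 1 higher and 17 lower in *Atg5*-/- AT2 cells (median -0.73).

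Heat shock genes divided. Of 16 tested, 3 were called lower with BLM in either genotype, *Hspa1a* (-1.88 in AT2 and -2.98 in *Atg5*-/- AT2 cells, limma adjusted p = 0.0246 and 0.00296), its near-identical copy *Hspa1b* (-1.08 and -1.84), whose reads may be split between them, and *Dnajb1* (-0.66 and -0.75). *Hspa1a* was at 9.63 to 13.7 FPKM in AT2-BLM and at 4.30 to 5.60 FPKM in *Atg5*-/- AT2-BLM, below every PBS sample. In AT2 cells 6 of the 16, *Hsph1* (1.02) among them, were called higher with BLM, a count that was 0 with quantile normalization and with scaling by the median ratio or to *Cdh1*. The medians of the list were 0.38 and 0.00, against 0.17 and 0.06 for all genes. Among all tested genes 7.77% were called lower and 20.6% higher in AT2 cells, and 10.7% and 7.66% in *Atg5*-/- AT2 cells. In AT2 cells 1 of the 16 was called lower, and in *Atg5*-/- AT2 cells 2, once both PBS samples with the highest members were left out. In that fit 4 and 1 were called higher, beside 22.1% and 6.64% of all genes, and 7.47% and 8.15% of all genes were called lower. *Atg5* loss gave 0 higher and 1 lower with PBS, and 0 higher and 2 lower with BLM, *Hspa1a* (-1.11) and *Hspb8* (-0.64), with adjusted p-values of 0.621 in limma. Among all genes 5.16% were called lower with PBS and 3.12% with BLM. *Hspa1a*, *Hspa1b* and *Dnajb1* were each highest, within their groups, in the 2 PBS samples with the highest *Fos*, and the part of cell isolation in their fall or in that of the members was not tested.

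**Figure D5:**
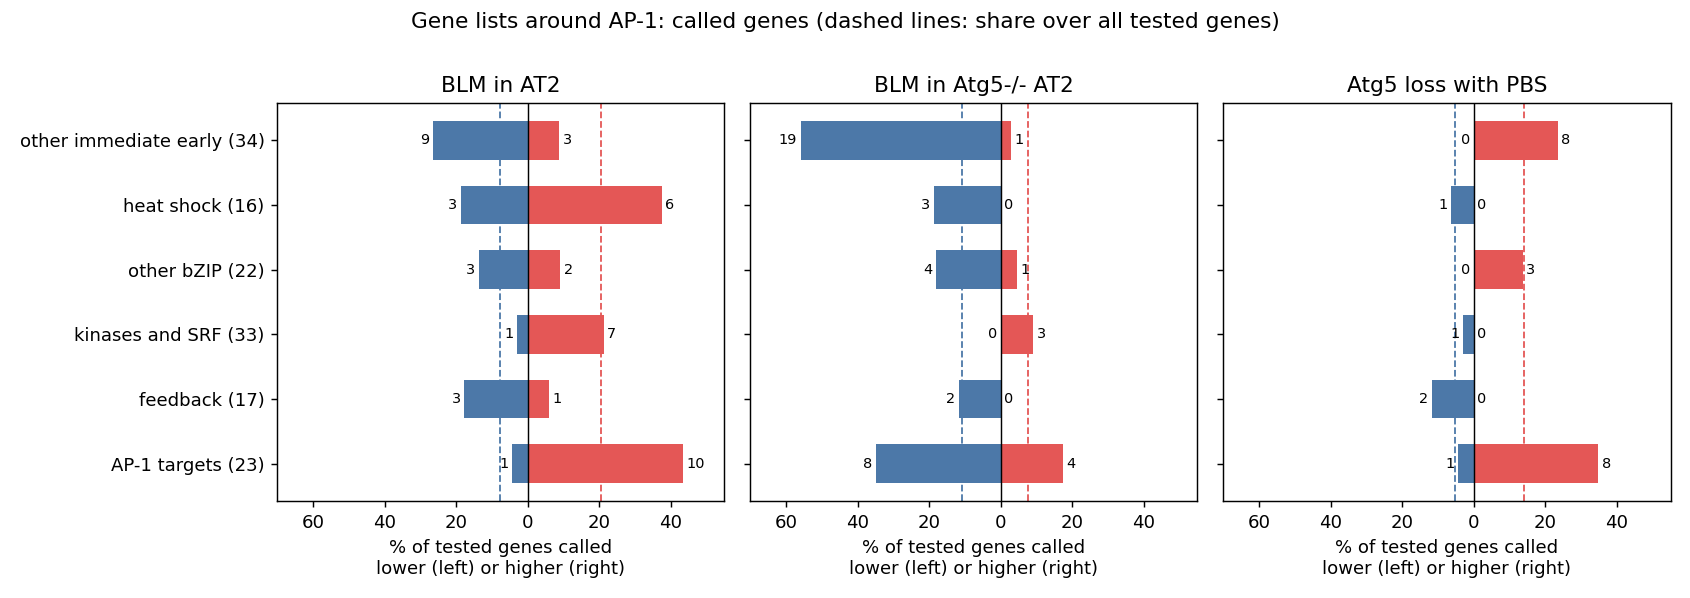
Percentage of tested genes called lower (blue, to the left) and higher (red, to the right) in 6 gene lists (rows, tested genes in brackets, counts beside the bars) in 3 comparisons (panels), with dashed lines for the percentage over all tested genes. The largest bar is that of 19 of 34 other immediate early genes called lower with BLM in *Atg5*-/- AT2 cells, where 10.7% of all genes were.

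Of 22 other bZIP partners, 2 were called higher and 3 lower with BLM in AT2 cells, and 1 higher and 4 lower in *Atg5*-/- AT2 cells. Over all genes 20.6% were called higher and 7.77% lower in the former, and 7.66% higher and 10.7% lower in the latter. *Cebpa*, a factor of AT2 maturation, changed by -1.89 (limma adjusted p = 0.0781) and *Nfe2l2*, the NRF2 gene of the oxidant response, by 0.83 (limma adjusted p = 0.053) in AT2 cells. *Atf4*, the factor of the integrated stress response, fell by 1.00 (limma adjusted p = 0.0284) in *Atg5*-/- AT2 cells, from 106 ± 34.4 to 51.3 ± 8.75 FPKM (SD, n = 3). *Atg5* loss gave 3 higher and 0 lower with PBS by limma, beside 14.1% and 5.16% of all genes. With BLM it gave 0 in either direction, beside 2.04% higher and 3.12% lower.

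Of 33 kinases and serum response factors upstream of AP-1, 7 were called higher and 1 lower with BLM in AT2 cells, and 3 higher and 0 lower in *Atg5*-/- AT2 cells. The share called higher was near that of all genes in AT2 cells (20.6%) and in *Atg5*-/- AT2 cells (7.66%). *Mapk13*, a p38 kinase of epithelia, rose by 1.38 from 38.5 ± 8.70 to 101 ± 16.3 FPKM (SD, n = 3) in AT2 cells (limma adjusted p = 0.00272). *Mapk11*, another p38 kinase, rose by 1.46 (limma adjusted p = 0.0032). Of 17 feedback phosphatases and inhibitors, 1 was called higher and 3 lower in AT2 cells, beside 20.6% and 7.77% of all genes. In *Atg5*-/- AT2 cells the counts were 0 and 2, beside 7.66% and 10.7%, and the share called lower was near that of all genes. *Spry1*, an inhibitor of receptor tyrosine kinase signaling, fell by 1.34 in AT2 cells (limma adjusted p = 0.0328). *Dusp5*, a phosphatase of ERK, fell by 2.00 in *Atg5*-/- AT2 cells (limma adjusted p = 0.0106), from 5.35 ± 2.90 to 0.491 ± 0.275 FPKM (SD, n = 3).

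Of 23 textbook AP-1 target genes tested, 10 were called higher and 1 lower with BLM in AT2 cells, where 20.6% of all genes were called higher, with a median of 0.56 against 0.17 for all genes. The 10 became 7 with quantile normalization or median-ratio scaling and 6 with scaling to *Cdh1*. In *Atg5*-/- AT2 cells 4 were called higher and 8 lower, where 10.7% of all genes were called lower, with a median of -0.03 against 0.06. *Plaur*, the urokinase receptor, rose by 2.94 (limma adjusted p = 0.0041) in AT2 cells, from 1.71 ± 1.26 to 23.8 ± 21.7 FPKM (SD, n = 3), and *Timp1*, an inhibitor of matrix proteases, rose by 2.62 (limma adjusted p = 0.0163). In *Atg5*-/- AT2 cells *Plaur* fell by 3.00 (limma adjusted p = 0.00368), from 55.8 ± 3.64 to 6.59 ± 3.08 FPKM (SD, n = 3), and *Il1b*, an inflammatory cytokine, fell by 2.96 (limma adjusted p = 0.00388). Both were high in *Atg5*-/- AT2-PBS, the group with the highest *Ptprc*, whose part in this was not tested. *Atg5* loss with PBS gave 8 higher and 1 lower, beside 14.1% and 5.16% of all genes. The interaction was -5.94 for *Plaur* (limma adjusted p = 0.00141). In it 0 of the 23 were called higher and 7 lower, beside 5.02% and 15.2% of all genes. With BLM, *Atg5* loss gave 0 higher and 3 lower, beside 2.04% and 3.12% of all genes. The interaction counts of the other lists, to be set against the same 5.02% and 15.2%, were 0 higher and 1 lower for heat shock genes and 1 and 2 for bZIP partners. They were 1 and 0 for kinases and 3 and 1 for feedback genes.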

How the data were processed

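RNA-seq of sorted mouse AT2 cells (12 samples, 4 groups of 3) was analysed from the FPKM table deposited by the authors. The authors' methods name Trimmomatic, STAR on mm9 and Cufflinks FPKM, and the submitters' processing notes name Trimmomatic 0.36, HISAT2 2.2.1.0, Cufflinks 2.2.1 and HTSeq 0.9.1, so the aligner is uncertain. A DESeq normalization by the authors is stated, but whether the deposited FPKM include it is not. Samples were grouped by title. Steps in low FPKM put the relative depth of the samples at 0.88 to 1.15, an estimate that rests on 7 to 26 genes per sample, and the absolute depth is unknown. The 10675 of 21878 genes that reached an FPKM of 1 in 3 or more samples were fitted as log2(FPKM + 1) with limma 3.58.1 in R 4.3.3 (lmFit, eBayes with trend). All 12 samples were in 1 fit, and p-values were Benjamini-Hochberg adjusted over all genes. The fit was tested on simulated data. No set test was run.

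The members and the gene lists were chosen with earlier results of these data known, so counts over them are descriptions. Named genes are the members, the 5 genes most correlated with *Jund* and with *Fos*, and at most 2 called genes of each list and comparison with the largest change. Genes called in the heat shock list beyond these, *Dnajb1* and *Hsph1*, were named after their values were seen. *Ccn1*, *Ccn2* and *Cop1* had no entry under these symbols. Gene positions are those of GENCODE on mm9 (NCBIM37), and promoters are those of RefSeq on GRCm38.p6, with no conversion between builds. No promoter entry was matched for *Fosl1* and *Ier2*. Entries on chromosome 18, where *Egr1* lies, were left out of the search of the members, so *Egr1* was not searched. Alternatives were another pseudocount (0.1), no filter, GC centring, scaling to *Cdh1*, median-ratio scaling, quantile normalization, a Y-linked covariate, the compared groups alone, a replicate block, no trend, calls by adjusted p, calls at 2-fold, and each sample left out. Leaving out both PBS samples with the highest members was added after seeing the data. Plots were made in Python 3.11.15 (matplotlib 3.10.9).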

Additional observations from a re-analysis of the deposited data

Results flagged for a closer look

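The effect of BLM on *Junb* differed between the genotypes by -1.17 (log2) in the interaction term (standard error 0.52, limma adjusted p = 0.224), with *Junb* higher in 2 of 3 AT2-BLM samples than the AT2-PBS median and lower in 2 of 3 *Atg5*-/- AT2-BLM samples than every *Atg5*-/- AT2-PBS sample.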

How the results depend on the processing

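The counts of called members were 5, 5, 2, 0 and 1 for BLM in AT2, BLM in *Atg5*-/- AT2, *Atg5* loss with PBS, *Atg5* loss with BLM and the interaction. With calls by adjusted p they were 1, 3, 1, 0 and 0. For *Atg5* loss with PBS 1 member was left without a filter, with quantile normalization, with GC centring and at 2-fold, and 0 remained called in the interaction under the first 3 of these and under median-ratio scaling. *Atg5* loss with BLM gave 2 called members in the fit of the compared groups alone. Without both PBS samples with the highest members, AT2-PBS replicate 1 and *Atg5*-/- AT2-PBS replicate 2, the counts were 3 for BLM in AT2, 2 for *Atg5* loss with BLM and 4 for the interaction. All of these were lower, as were 7.47%, 3.18% and 13.1% of all genes. With the Y-linked covariate they were 6, 4, 2, 0 and 1, but 1 of the 2 for *Atg5* loss with PBS was lower and the 1 in the interaction higher. With 1 sample left out the counts ranged from 3 to 5, 3 to 7, 1 to 3, 0 to 0 and 0 to 4. The shares of all genes called in these fits are not given, so the counts cannot be set against them. *Fosl1* with BLM in AT2 changed sign with scaling to *Cdh1* (-0.01) and GC centring (-0.04) and ranged from -0.67 to 1.15 with 1 sample left out, and *Junb* from -0.03 to 0.77. Of 19 member changes given only as counts, 14 changed sign under some alternative. With *Cdh1* scaling the median of all genes moved from 0.06 to -0.32 for BLM in *Atg5*-/- AT2 and from 0.02 to 0.34 for *Atg5* loss with PBS. For BLM in AT2 the median of all genes was 0.17 in the main fit. It was 0.00 with quantile normalization, 0.03 with median-ratio scaling and -0.02 with *Cdh1* scaling. AT2-BLM replicate 3 was the highest sample for 25.3% of all tested genes. The causes of these differences were not tested.

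Whether the replicate numbers pair the samples is unknown. Correlations of same-numbered deviations went from -0.24 to 0.23, which cannot settle it with 3 samples in each group. With a replicate block the counts were 5, 7, 2, 0 and 1. Depth is unknown, so *Fosl1* and *Fosl2*, at 1.34 and 2.28 FPKM, have an unknown counting error.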
